A study of Homo sapiens with 31 samples.

Results

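The messenger RNA levels of 40 replication fork genes were measured in MCF10A, a non-transformed human breast epithelial cell line that stops cycling when growth factors are withdrawn. The genes were chosen by name, as polymerase, primase, clamp, clamp loader, GINS, RPA and fork protection genes, from 56269 gene names in the count files. Earlier results of these data were known when they were chosen. All 40 had enough reads to be tested. RNA was taken in 11 groups of cells, 31 libraries in all. Every group had first been starved for 2 to 3 days in medium that lacked horse serum, epidermal growth factor and insulin and kept hydrocortisone and cholera toxin. In 4 groups the cells were then returned to full medium with 1 µM palbociclib for 9, 12, 15 or 24 h. In 6 groups they were returned to full medium with 0.1% DMSO, the vehicle, for 3, 6, 9, 12, 15 or 24 h. The remaining group was the starved cells at 0 h. The 24 h groups had 2 libraries each and all others 3. The sources used here do not say whether replicates came from separate cultures, so the spread behind the p-values may be technical.

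The replication fork copies DNA with a set of proteins that act in a fixed order. DNA polymerase alpha and its primase lay down short RNA-DNA primers, DNA polymerases epsilon and delta extend them on the leading and lagging strands, and PCNA, a ring loaded onto DNA by the RFC complexes, tethers the polymerases. The GINS complex joins the MCM helicase that opens the strands, RPA coats the exposed single strands, FEN1 and LIG1 trim and join Okazaki fragments, and TIMELESS, TIPIN and CLSPN steady the fork and relay checkpoint signals. Genes of this machinery are best known as targets of E2F transcription factors, which the retinoblastoma protein restrains in G1 until CDK4, CDK6 and CDK2 phosphorylate it. Palbociclib inhibits CDK4 and CDK6.

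Total counts ran from 10342358 to 20878364 per library, and no 2 libraries were identical. All 6 basal mammary markers reached 1 CPM (counts scaled to the library total) in some library, with a summed level of 7470 to 10200 CPM over the libraries, against 283 to 719 CPM for luminal markers, of which 4 of 6 reached 1 CPM. The luminal sum was 283 to 300 CPM in starved cells, 656 to 719 CPM under DMSO at 3 h and 475 to 624 CPM in the later groups. Of 5 mesenchymal markers COL1A1 and DCN reached 1 CPM, with a summed level of 74.4 to 85.4 CPM in starved cells, 63.5 to 72.3 CPM under DMSO at 3 h, 30.8 to 34.3 CPM under palbociclib and 31.3 to 36.5 CPM under DMSO at 15 h, and 15.3 to 18.1 CPM under palbociclib and 16.2 to 16.3 CPM under DMSO at 24 h. Of 4 endothelial markers PECAM1 and KDR did, with 89.7 to 98.8 CPM in starved cells, 12.5 to 27.3 CPM under DMSO at 3 h and at most 2.78 CPM in every later group; the part of these shifts in the comparisons with starved cells was not tested. None of 5 blood markers did. ELF5, a luminal marker, had no count. On the first axis of the variation within groups, which held 27.5% of it, replicate 3 of all palbociclib groups and of DMSO 24 h scored 7.84 to 27.2. Replicate 3 of the other groups lay on the opposite side, at -18.5 to -7.51, and replicate 2 of those groups on the same side, at 12 to 24.8. The farthest library was replicate 1 of palbociclib 15 h, at -31.6. In the 24 h groups of 2 libraries, centring alone makes the scores mirror each other. Counts of genes are also given without the 5 libraries of the first kind.

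The drug comparison asked how the fork genes stand in released cells whose CDK4 and CDK6 are inhibited. At 15 h, 37 of the 40 genes were lower under palbociclib than under DMSO and none was higher (edgeR quasi-likelihood test, Benjamini-Hochberg adjusted over 15787 genes, threshold 0.05). Of all genes tested, 8.79% were lower and 2.15% higher at that time. The median log2 fold change (palbociclib over DMSO) was -1.84 over the 40 genes and 0.00581 over all genes. Of the 37 genes, 31 were at least 2-fold lower, a cut whose share over all genes was not counted. The difference was present at 9 h, when 25 genes were lower (1.08% of all genes; 0 higher, against 0.114%; median -0.53), and at 12 h, when 37 were (4.81%; 0 higher, against 0.83%; median -1.41). At 24 h, 37 were lower (12.3%; 0 higher, against 5.76%; median -1.77). Libraries of the palbociclib and DMSO groups did not overlap for 32, 38, 38 and 40 of the genes at 9, 12, 15 and 24 h, in either direction, against 15.4%, 22.9%, 25.1% and 54% of all genes. At 24 h, with 2 libraries a group, the 40 include POLE4, POLD2 and POLD4, which were not called. None was called higher by the DESeq2 Wald test either (0 at each time), and at an unadjusted p below 0.05 the only higher gene was POLD4 at 24 h (0.53 ± 0.25). In bulk RNA, fewer cells expressing a gene and less of its RNA per cell cannot be told apart.

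The 3 genes outside the call at 12, 15 and 24 h were the same: POLE4, POLD2 and POLD4, accessory subunits of polymerases epsilon and delta. Without replicate 3 of the palbociclib groups and of DMSO 24 h, the 5 libraries named above, 16 of the 25 calls at 9 h and 36 of the 37 at 12 h remained, as did all 37 of each later time. Each 24 h group then holds 1 library, which is assumed to vary like the other groups, so the 24 h calls of that fit do not rest on replicates of 24 h. The same holds for a 24 h group left with 1 library when the other is left out. The 12 h call that was lost was POLE3, whose log2 fold change was -0.33 both in all libraries and without the 5. It was also lost on leaving out any 1 palbociclib 12 h library or replicate 1 or 2 of DMSO 12 h (-0.33 to -0.29). At 24 h TIPIN was the 1 call lost in this way, with -0.70 in all libraries, -0.51 without replicate 1 of palbociclib 24 h and -0.57 without replicate 3 of DMSO 24 h. At 9 h, 13 of the 25 calls held in every one of these fits: PRIM1, POLD3, PCNA, RFC4, DSCC1, ATAD5, GINS1, GINS2, WDHD1, DONSON, FEN1, CLSPN and DTL.

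Of these early differences, those of DTL and CLSPN were the largest. DTL had 1.79, 2.43 and 1.91 CPM under palbociclib at 9 h, against 31.8, 33.8 and 26.8 CPM under DMSO (-3.89 ± 0.14), and CLSPN 1.34, 0.62 and 0.888 CPM under palbociclib against 13.3, 12.2 and 10.6 CPM under DMSO (-3.72 ± 0.18). GINS2 had 2.17, 2.02 and 1.23 CPM under palbociclib and 6.79, 6.85 and 5.28 CPM under DMSO (-1.81 ± 0.17). GINS1 had 4.11, 2.69 and 3.28 CPM under palbociclib against 10.9, 10.2 and 9.86 CPM under DMSO (-1.64 ± 0.12). In each of these genes all palbociclib libraries were already below all DMSO libraries. The same held for PRIM1, with 3.06, 2.12 and 2.19 CPM under palbociclib and 6.86, 6.39 and 7.02 CPM under DMSO (-1.47 ± 0.15), and for PCNA, with means of 39.1 ± 1.01 CPM under palbociclib and 68 ± 7.12 CPM under DMSO (SD, n = 3; log2 fold change -0.80 ± 0.08). At 24 h the lowest fold changes were those of CLSPN (-4.43 ± 0.16), DTL (-3.48 ± 0.12), GINS2 (-3.31 ± 0.16) and TICRR (-2.91 ± 0.15). TICRR then had 8.9 and 7.27 CPM under palbociclib and 65.4 and 55.4 CPM under DMSO, and CLSPN 3.22 and 2.81 CPM under palbociclib and 69.6 and 60.0 CPM under DMSO.

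**Figure D1:**
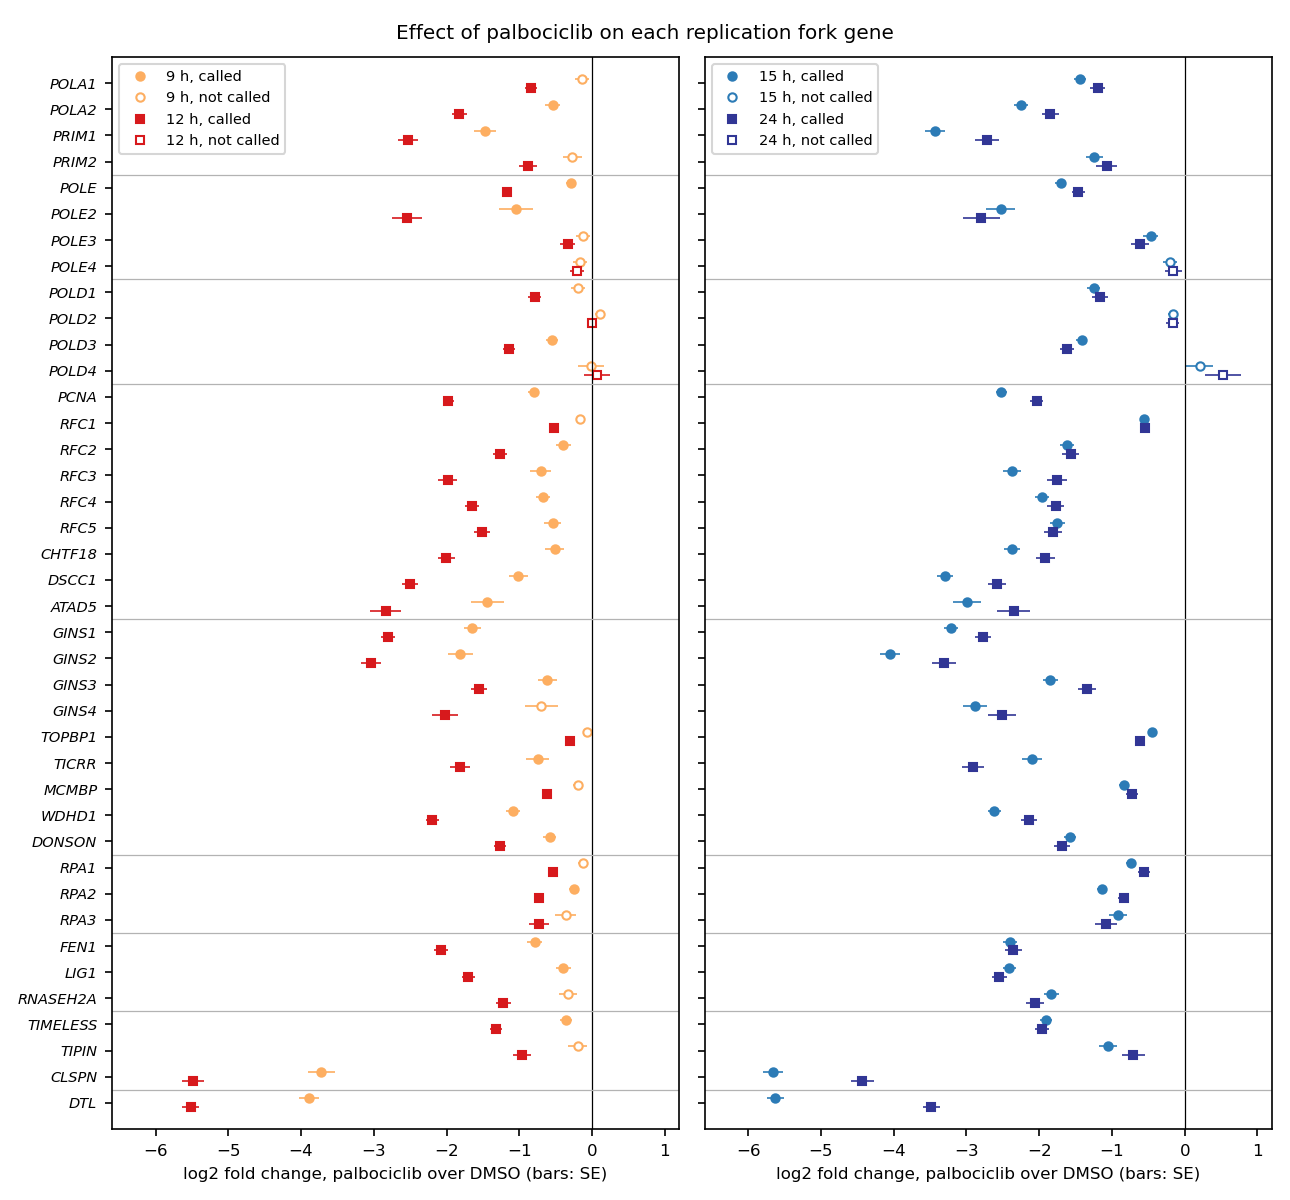
Log2 fold change of each of the 40 genes (rows, grouped by role), palbociclib over DMSO, at 9 and 12 h (left) and 15 and 24 h (right); bars are standard errors and open symbols are genes outside the call. DTL and CLSPN lie farthest left, with -5.63 and -5.66 at 15 h, and POLE4, POLD2 and POLD4 have open symbols at all 4 times.

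Promoter sequence was set beside these effects, since E2F factors bind short stretches near the starts of many replication genes. Windows of 300 bases, from 250 before the start base to 50 from it on, came from RefSeq (GRCh38.p14) and were found for 33 of the 40 genes, 42 windows in all, with more than one for 8 genes. The 5 windows shown are those of the 3 genes with the lowest fold changes at 15 h, CLSPN, DTL and GINS2, and of POLE4 and POLD2, which passed no drug test. Capitals mark an E2F stretch, any of TTTCCCGC, TTTCCCGG, TTTCGCGC, TTTCGCGG, TTTGCCGC, TTTGCCGG, TTTGGCGC and TTTGGCGG on either strand. Each is printed from 250 bases before the start through 25 bases from it on, 5′ to 3′ on the gene's strand.
DTL, chr1:212035498-212035772, plus strand: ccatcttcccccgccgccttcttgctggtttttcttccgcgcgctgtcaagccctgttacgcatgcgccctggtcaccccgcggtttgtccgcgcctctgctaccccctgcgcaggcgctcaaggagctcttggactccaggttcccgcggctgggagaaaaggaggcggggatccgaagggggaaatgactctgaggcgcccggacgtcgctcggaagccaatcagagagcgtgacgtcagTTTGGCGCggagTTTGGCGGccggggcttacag
CLSPN, chr1:35769954-35770228, minus strand: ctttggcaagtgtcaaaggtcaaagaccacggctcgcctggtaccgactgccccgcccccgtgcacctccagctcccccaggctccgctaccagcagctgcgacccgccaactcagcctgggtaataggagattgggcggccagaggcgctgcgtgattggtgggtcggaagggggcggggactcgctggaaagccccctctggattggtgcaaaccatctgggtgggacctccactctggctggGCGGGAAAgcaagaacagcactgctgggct
GINS2, chr16:85688930-85689204, minus strand: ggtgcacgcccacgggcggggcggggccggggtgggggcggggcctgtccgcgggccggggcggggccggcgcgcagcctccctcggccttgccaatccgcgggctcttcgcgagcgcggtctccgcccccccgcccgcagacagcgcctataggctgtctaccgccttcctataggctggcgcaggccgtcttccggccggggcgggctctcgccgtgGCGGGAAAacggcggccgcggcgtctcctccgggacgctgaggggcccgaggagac
POLE4, chr2:74958393-74958667, plus strand: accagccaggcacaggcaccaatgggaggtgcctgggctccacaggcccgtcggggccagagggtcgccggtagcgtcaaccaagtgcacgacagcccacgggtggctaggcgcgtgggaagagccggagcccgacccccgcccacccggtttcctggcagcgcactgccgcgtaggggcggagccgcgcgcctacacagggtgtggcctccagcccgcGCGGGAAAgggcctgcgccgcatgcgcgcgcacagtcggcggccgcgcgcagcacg
POLD2, chr7:44123524-44123798, minus strand: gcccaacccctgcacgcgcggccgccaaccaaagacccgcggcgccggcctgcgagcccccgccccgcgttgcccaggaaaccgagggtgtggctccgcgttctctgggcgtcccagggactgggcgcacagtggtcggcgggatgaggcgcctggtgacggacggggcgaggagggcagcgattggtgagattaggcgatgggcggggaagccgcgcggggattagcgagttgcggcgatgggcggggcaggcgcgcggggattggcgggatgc

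Counting the start base as 0, the stretches began at -8 and 4 in DTL, at -5 in CLSPN and at -31 in both GINS2 and POLE4, and the POLD2 window held none. GINS2 and POLE4 carried the same stretch, GCGGGAAA, at the same place, and GINS2 was among the genes with the largest drug effect while POLE4 passed no drug test. An E2F stretch stood in 19 of the 42 windows, 45.2%, against 2174 of all 35116 windows of the same length, 6.19%. Windows of the same gene can overlap, and those of TICRR held the same stretch, which counts for both. By gene, an E2F stretch was present in 18 of the 33 genes. Their median log2 fold change at 15 h was -2.17, against -1.75 for the 15 genes without a stretch. This difference was not tested. The 7 genes without a window, POLD3, DSCC1, ATAD5, GINS4, DONSON, RPA2 and RPA3, are in neither median. Of other short motifs searched on both strands, the CCAAT box (CCAAT) was in 52.4% of the windows of these genes and 34.6% of all windows, the GC box (GGGCGG, which can share bases with an E2F stretch) in 76.2% and 45%, and the cell cycle genes homology region (TTTGAA) in 2.38% and 15.2%. Such matches are descriptions of these letters and not sites of binding.

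The course after release under DMSO asked when the fork genes rise as starved cells return toward the cell cycle. At 3 h, 9 genes were higher than in starved cells (27.8% of all genes) and 12 lower (34.4%), with a median log2 fold change of -0.12. By 6 h, 19 were higher (34%) and 11 lower (39.5%; median 0.23). From 9 h on nearly the whole set stood above the start: the 9 h counts were 34 higher (35.3%) and 4 lower (39.9%; median 1.08). Those of 12 h were 36 higher (36.1%) and 1 lower (39.6%; median 1.74). The 15 h counts reached 38 higher (37.4%) and 1 lower (39.3%; median 2.14), and the 24 h counts 38 higher (36.7%) and 2 lower (38.9%; median 2.2). Every higher call at 9, 12 and 15 h remained on leaving out any 1 library of the comparison. Those of 24 h remained on leaving out any 1 starved library. Without the 5 libraries, all higher calls of 9, 12 and 15 h remained too. None of the 5 is in those comparisons, so that fit changed only the shared spread, scaling and filter. The count of lower genes at 6 h was 7 without replicate 2 of the starved group. It was 6 without the 5 libraries, which are not in that comparison either. The gene lower at 12 and 15 h was RFC1, and at 24 h RFC1 and POLD4, and each of these calls was lost without some single library. At 24 h, RFC1 was lost without replicate 1 of starved 0 h or either DMSO 24 h library (-0.15 in all libraries, -0.15 to -0.13 then) and POLD4 without replicate 2 of starved 0 h or either DMSO 24 h library (-0.57 in all, -0.65 to -0.40 then). At 12 h, RFC1 was lost without any 1 of the 3 DMSO libraries (-0.20 in all, -0.12 to -0.08 then). Scaling by library totals in place of TMM factors, which correct totals for composition, gave a median of all genes of -0.27 (3 h) and -0.21 (24 h), where TMM gave -0.10 and -0.095. No called fork gene changed direction under that scaling, but the lower count at 3 h was 21 with it, and 7 when only the 2 compared groups were fitted, against 12 as first given.

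In steps between neighbouring times under DMSO, 19 genes were higher and 7 lower at 6 h than at 3 h (27.8% and 29.8% of all genes), 33 were higher at 9 h than at 6 h (18.1%), 35 at 12 h than at 9 h (9.07%) and 30 at 15 h than at 12 h (5.03%). No gene was lower in these last 3 steps, against 16.6%, 6.12% and 1.98% of all genes, and 0 were at an unadjusted p below 0.05 in edgeR or called by the DESeq2 Wald test. The lower count from 3 to 6 h was 4 without replicate 2 of DMSO 6 h. Between 15 and 24 h the counts of fork genes called lay near the shares over all genes. At 24 h, 8 genes were higher (16.5% of all genes), POLD2, RFC5, CHTF18, TICRR, RPA3, LIG1, RNASEH2A and TIMELESS, and 6 were lower (13%), POLD4, PCNA, DONSON, TIPIN, CLSPN and DTL. Of these, TICRR changed most, with 65.4 and 55.4 CPM at 24 h against 29.8, 25.8 and 23.9 CPM at 15 h, a log2 fold change of 1.19 ± 0.12. The 8 higher calls kept all but POLD2 and RFC5 on leaving out single libraries: without replicate 3 of DMSO 24 h POLD2 had 0.22 (0.31 in all libraries) and RFC5 0.22 (0.29 in all), and RFC5 was also lost without replicate 1 or 3 of DMSO 15 h (0.24 and 0.23). The 6 lower calls were 3 without replicate 1 of DMSO 24 h, where PCNA had -0.23 (-0.28 in all), TIPIN -0.25 (-0.37 in all) and POLD4 -0.52 (-0.59 in all). TIPIN was also lost without replicate 1 or 2 of DMSO 15 h, POLD4 without those or replicate 3 of DMSO 24 h, and CLSPN without the last (-0.22, against -0.32 in all). Those of DTL and DONSON held, at -0.51 ± 0.09 and -0.40 ± 0.09.

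The genes were ordered by the first time at which each was called at least 2-fold above starved cells. That time depends on the size of a rise as well as on its start. It was 6 h for 6 genes, POLE2, POLE3, DSCC1, GINS2, MCMBP and CLSPN, 9 h for 16 genes, among them PCNA, FEN1, GINS1 and DTL, 12 h for 8 genes, among them POLA1, PRIM1 and RFC4, 15 h for PRIM2, POLE, RPA2 and LIG1, and 24 h for POLE4 and RPA3. POLD4, RFC1, TOPBP1 and RPA1 reached it at no time. POLE2, GINS2 and CLSPN, among the genes of 6 h, started from 13, 41 and 9 counts summed over the starved libraries. Without the 2-fold rule the order differed. The first higher call then fell at 3 h for 9 genes, when 27.8% of all genes were higher. It fell at 6 h for 12, 9 h for 14, 12 h for 2 and 15 h for 2. POLE and POLE4 were among those of 3 h, though the POLE4 call was lost without some single libraries. RFC1 had no higher call. The highest DMSO mean fell at 24 h for 26 genes and at 15 h for 13. Only POLD4 had its highest DMSO mean at 3 h. Neither first times nor times of the highest mean were counted over all genes, so these counts describe the set alone.

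**Figure D2:**
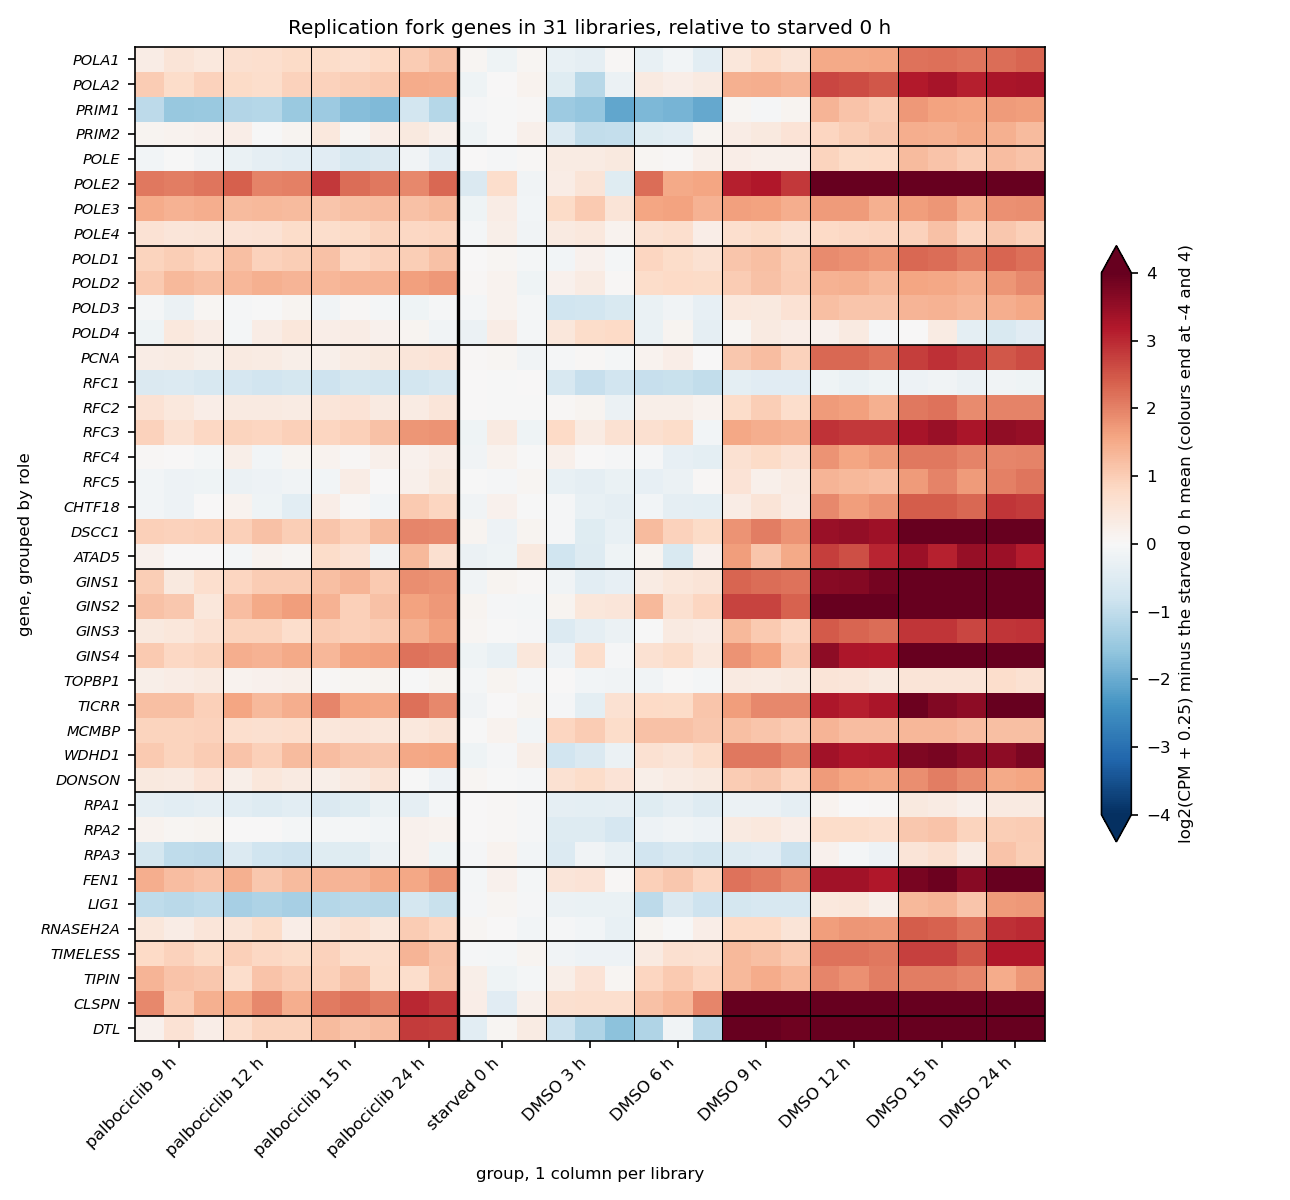
Level of each gene (rows, grouped by role) in each of the 31 libraries (columns), as log2(CPM + 0.25) minus the mean of the starved libraries; colours end at -4 and 4. From 9 h on the DMSO libraries at the right are redder for most genes than the palbociclib libraries at the left, and PRIM1, RFC1 and LIG1 are blue under palbociclib.

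Under palbociclib the set neither followed DMSO nor stood still at the starved level. At 15 h, 25 genes were higher than in starved cells (35.1% of all genes) and 6 lower (39.9%). At 9, 12 and 24 h the higher counts were 25 (34.9%), 26 (35%) and 28 (34.3%), and the lower counts 5 (40.8%), 6 (40.4%) and 5 (36.9%). These shares of higher genes, 25 to 28 of 40, compare with 34 to 38 of 40 under DMSO over the same times. For the 38 genes that had risen under DMSO by 15 h, the palbociclib mean kept a median of 10.3% of that rise. It kept less than 25% for 32 of them and more than 50% for 3: POLE3 with 59.3%, POLE4 with 74.4% and POLD2 with 83.6%. Genes entered this measure by their DMSO rise, which also divides it, and it was not computed over all genes. Small rises make it unstable: RPA1, whose log2 fold change under DMSO was 0.30, had -112%. For 7 genes, PRIM1, POLE, POLD3, RPA1, RPA2, RPA3 and LIG1, the palbociclib mean lay below the starved mean. Of these, POLD3 and RPA2, at -2.39% and -5.79% of the rise, were not called lower than in starved cells.

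Of the genes below the starved level at 15 h of palbociclib, PRIM1 had a log2 fold change of -1.77 ± 0.16 against 0 h, LIG1 -1.14 ± 0.09, RFC1 -0.75 ± 0.06, POLE -0.56 ± 0.07, RPA1 -0.43 ± 0.07 and RPA3 -0.41 ± 0.13. The RPA3 call was lost without replicate 1 or replicate 2 of palbociclib 15 h, at -0.29 and -0.26. At 24 h PRIM1, LIG1 and RFC1 were still lower than in starved cells in every such fit, whereas POLE lost its call without replicate 3 of palbociclib 24 h (-0.08) and RPA1 without replicate 1 of that group (0.05, adjusted p = 0.622) or replicate 2 of starved 0 h (-0.18). The palbociclib and DMSO comparisons with 0 h share the starved libraries.

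Polymerase alpha-primase starts every new strand, and all 4 of its genes were lower under palbociclib at 15 h, with a median log2 fold change of -1.85. PRIM1, the catalytic primase subunit on chromosome 12 (56731596 to 56752373, minus strand, GRCh38), had 2.22, 1.86 and 1.76 CPM under palbociclib, against 22.2, 20.5 and 19.9 CPM under DMSO and 6.35, 6.52 and 6.8 CPM in starved cells. The 3 groups did not overlap, with palbociclib the lowest and starved cells between. Its log2 fold change against DMSO was -3.44 ± 0.14, a 10.7-fold lower mean. PRIM1 was also low early under DMSO, with means of 6.56, 1.9, 1.58, 6.76, 15.1, 20.9 and 21.6 CPM (0, 3, 6, 9, 12, 15 and 24 h). PRIM2, the regulatory primase subunit, had 10.9, 8.54 and 9.71 CPM under palbociclib against 22.8, 21.9 and 23.7 CPM under DMSO (-1.24 ± 0.12). POLA1, the catalytic polymerase subunit, had 18.2, 17.5 and 18.9 CPM under palbociclib against 49.1, 50.8 and 48.7 CPM under DMSO (-1.44 ± 0.08). For POLA2, its second subunit, the values were 8.78, 9.3 and 9.64 CPM under palbociclib and 43.1, 47.4 and 41.4 CPM under DMSO (-2.25 ± 0.10). In all 3, every palbociclib library lay below every DMSO library.

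Polymerase epsilon copies the leading strand, and its subunits had unequal drug effects. POLE2, the second subunit, had 3.07, 1.97 and 1.76 CPM under palbociclib and 13.1, 13.2 and 11.9 CPM under DMSO (-2.53 ± 0.20). POLE, the catalytic subunit, had 39.3, 34.1 and 36.1 CPM under palbociclib, against 128, 118 and 109 CPM under DMSO and 53.9, 52 and 54.9 CPM in starved cells (-1.71 ± 0.07 against DMSO). The groups were apart for both genes. The histone-fold subunits POLE3 and POLE4 had small drug effects. POLE3 had 64.7, 69 and 70.7 CPM under palbociclib against 96.8, 102 and 83.1 CPM under DMSO (-0.47 ± 0.10, adjusted p = 0.00133). POLE4 had 28.2, 29.3 and 32.6 CPM under palbociclib against 32.6, 39.3 and 31.3 CPM under DMSO (-0.20 ± 0.10, adjusted p = 0.231). POLE3 libraries did not overlap between the groups, while those of POLE4 did. Both were called above starved cells under DMSO at 6 h, and POLE3 averaged 30.3, 52.6, 87, 89.3, 91.9, 94.1 and 108 CPM (0, 3, 6, 9, 12, 15 and 24 h).

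Polymerase delta works on the lagging strand together with PCNA, and 2 of its 4 genes were lower at 15 h. POLD1, the catalytic subunit, had 30.9, 24.3 and 25.8 CPM under palbociclib and 68.1, 65 and 58.1 CPM under DMSO (-1.25 ± 0.09), and POLD3, an accessory subunit, had 16.4, 18.7 and 16.9 CPM under palbociclib against 46.6, 47.6 and 45.2 CPM under DMSO (-1.42 ± 0.08). The groups were apart for both. POLD2, the accessory subunit that binds POLD1, had 96.2, 100.3 and 100.5 CPM under palbociclib, 114, 113 and 106 CPM under DMSO and 39.2, 41.9 and 33.8 CPM in starved cells. Its log2 fold change was -0.16 ± 0.07 against DMSO (adjusted p = 0.165) and 1.37 ± 0.08 against starved cells, so it rose under the drug as well. The palbociclib and DMSO libraries of POLD2 did not overlap at 15 h, with a gap smaller than those of POLD1 and POLD3. POLD4, the smallest subunit, had 5.96, 6.08 and 5.55 CPM under palbociclib and 5.04, 6.28 and 3.72 CPM under DMSO, with overlapping libraries and a log2 fold change of 0.20 ± 0.19 (adjusted p = 0.601). The counting took no account of strand, and 21.3% of the exon length of POLD4 is shared with another gene, so its level is uncertain. POLD2 has 1 gene named as its pseudogene in the files.

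The clamp and its loaders, 9 genes, were all lower at 15 h, with a median log2 fold change of -2.37. PCNA, the sliding clamp on chromosome 20 (5114953 to 5126626, minus strand), had 37.1, 40.3 and 41.7 CPM under palbociclib, against 217, 243 and 225 CPM under DMSO and 33, 34 and 28.9 CPM in starved cells. The palbociclib libraries lay just above the starved ones and far below the DMSO ones (-2.52 ± 0.07 against DMSO, 0.32 ± 0.08 against starved cells). Means of PCNA under palbociclib were 39.1, 39.3, 39.7 and 45.7 CPM (9, 12, 15 and 24 h), while under DMSO they were 32, 31.4, 35.4, 68, 155, 228 and 187 CPM (0, 3, 6, 9, 12, 15 and 24 h). PCNA has 3 pseudogene names in the files, and reads mapping to several places were not counted.

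DSCC1 and CHTF18 belong to the alternative clamp loader that also serves sister chromatid cohesion. DSCC1 had 3.15, 2.79 and 3.53 CPM under palbociclib and 30.2, 32.5 and 30.1 CPM under DMSO (-3.30 ± 0.11), and CHTF18 had 6.39, 5.42 and 4.85 CPM under palbociclib against 29.4, 29.2 and 26.8 CPM under DMSO (-2.37 ± 0.11). ATAD5, which unloads PCNA, had 5.54, 4.93 and 2.9 CPM under palbociclib against 37.5, 29 and 38.9 CPM under DMSO (-2.99 ± 0.19). The groups were apart for all 3. The small subunits of the main loader were all lower. RFC2 had 17.4, 18.3 and 16.1 CPM under palbociclib and 55, 57.2 and 46.9 CPM under DMSO (-1.62 ± 0.09). RFC3 had 6.73, 7.22 and 8.51 CPM under palbociclib against 37.5, 42.5 and 36.8 CPM under DMSO (-2.37 ± 0.12) and RFC4 9.97, 9.25 and 10.4 CPM under palbociclib against 39.5, 39.5 and 36.2 CPM under DMSO (-1.96 ± 0.09). RFC5 had 8.44, 11.2 and 9.14 CPM under palbociclib against 30.5, 36.8 and 30.1 CPM under DMSO (-1.75 ± 0.10), and in none of these did the groups overlap. RFC1, its large subunit, had 71.4, 77.8 and 76.2 CPM under palbociclib, against 109, 115 and 109 CPM under DMSO and 127, 126 and 127 CPM in starved cells. It was the one loader gene whose highest group mean was in starved cells, and its drug effect was -0.56 ± 0.06. Under DMSO at 15 h RFC1 was called below the starved level at -0.19 ± 0.06, a call lost without replicate 1 or replicate 3 of DMSO 15 h (-0.10 in both fits). RFC5 shares 10.6% of its exon length with genes on the opposite strand, and RFC3 and RFC5 each have 1 pseudogene name in the files.

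GINS and the partners of the helicase, 9 genes, were also all lower at 15 h, with a median of -2.1. GINS2 had 2.56, 1.86 and 2.21 CPM under palbociclib, against 35.8, 38.4 and 34.1 CPM under DMSO and 0.916, 0.807 and 0.776 CPM in starved cells, a log2 fold change of -4.06 ± 0.14 and a 16.4-fold lower mean. GINS1 had 4.86, 5.47 and 4.35 CPM under palbociclib against 45.8, 44.6 and 47 CPM under DMSO (-3.22 ± 0.10), GINS4 1.96, 2.41 and 2.46 CPM under palbociclib against 17.4, 17.8 and 15.9 CPM under DMSO (-2.88 ± 0.16) and GINS3 5.37, 5.2 and 5.42 CPM under palbociclib against 20.0, 20.0 and 17.5 CPM under DMSO (-1.85 ± 0.11). For each GINS subunit every palbociclib library lay below every DMSO library and above every starved one. GINS4 and GINS3 share 23.6% and 10.9% of their exon length with genes on the opposite strand.

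WDHD1, which links the helicase to polymerase alpha, had 12, 11.1 and 10.7 CPM under palbociclib and 68.7, 73.2 and 64.5 CPM under DMSO (-2.62 ± 0.09). TICRR, needed to fire origins, had 7.5, 5.75 and 5.55 CPM under palbociclib against 29.8, 25.8 and 23.9 CPM under DMSO (-2.1 ± 0.13). DONSON, which helps to place GINS on the helicase, had 10.8, 11.8 and 13 CPM under palbociclib against 33.4, 38.5 and 34.4 CPM under DMSO (-1.58 ± 0.08). MCMBP, a partner of free MCM proteins, and TOPBP1, which acts in origin firing and ATR signalling, were lower by less. MCMBP had 95, 97.3 and 96.2 CPM under palbociclib against 174, 177 and 163 CPM under DMSO (-0.83 ± 0.07) and TOPBP1 80.8, 84.1 and 85.2 CPM under palbociclib against 114, 114 and 113 CPM under DMSO (-0.44 ± 0.06), again with the groups apart. MCMBP was one of the early risers under DMSO, with 69.7, 128, 154, 149, 169, 171 and 159.8 CPM (0, 3, 6, 9, 12, 15 and 24 h), and under palbociclib it averaged 130.2, 110.2, 96.2 and 96.3 CPM (9, 12, 15 and 24 h).

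The 3 RPA genes were lower by less than the other role groups whose genes were all called, with a median of -0.92 at 15 h, against medians of -1.85 to -5.63 for those groups, the last being DTL, the one gene of its group. RPA1 had 60.8, 64.5 and 74.1 CPM under palbociclib and 117, 112 and 104 CPM under DMSO (-0.74 ± 0.07), RPA2 22.8, 22.9 and 22.3 CPM under palbociclib against 50.9, 53.5 and 45 CPM under DMSO (-1.14 ± 0.06), and RPA3 8.44, 8.37 and 9.96 CPM under palbociclib against 16.9, 18.7 and 15 CPM under DMSO (-0.92 ± 0.13). No palbociclib library reached the lowest DMSO library of its gene. RPA2 has 3 pseudogene names in the files.

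The Okazaki fragment genes were among the more affected, with a median of -2.40. FEN1, the flap endonuclease, had 15.6, 15.7 and 17.5 CPM under palbociclib and 86.2, 93.8 and 77.3 CPM under DMSO (-2.40 ± 0.10). LIG1, the ligase that seals the fragments, had 7.67, 7.94 and 7.75 CPM under palbociclib, against 42.4, 44.6 and 37.4 CPM under DMSO and 16.7, 18 and 16.7 CPM in starved cells (-2.41 ± 0.09 against DMSO). RNASEH2A, the catalytic subunit of ribonuclease H2, had 6.48, 7.17 and 6.24 CPM under palbociclib against 25.6, 24.5 and 21.2 CPM under DMSO (-1.84 ± 0.11). The groups were apart for all 3, and for LIG1 the starved libraries lay between them. LIG1 rose late, with DMSO means of 17.1, 14.3, 9.71, 10.8, 22.2, 41.5 and 56.7 CPM (0, 3, 6, 9, 12, 15 and 24 h), and under palbociclib it averaged 8.24, 6.82, 7.79 and 9.76 CPM (9, 12, 15 and 24 h).

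Fork protection genes were lower by unequal amounts. CLSPN, the mediator that passes the ATR signal to CHK1, had 1.53, 1.7 and 1.51 CPM under palbociclib and 84.4, 80.4 and 78.2 CPM under DMSO, the lowest fold change of all 40 genes at -5.66 ± 0.14, a 51.2-fold lower mean. In starved cells its 3 libraries held 9 counts in all (0.262, 0.0577 and 0.239 CPM), against 3648 counts under DMSO at 15 h. TIMELESS had 19.8, 17.1 and 17 CPM under palbociclib against 70.4, 70.8 and 59.8 CPM under DMSO (-1.91 ± 0.08), and its partner TIPIN 9.46, 11.2 and 8.26 CPM under palbociclib against 20.5, 20.5 and 19.4 CPM under DMSO (-1.06 ± 0.13). The groups were apart for all 3 genes. TIPIN shares 21% of its exon length with a ribosomal protein pseudogene on the same strand.

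DTL, the substrate receptor of a ubiquitin ligase that destroys CDT1 when it meets PCNA on DNA, had 4.09, 3.72 and 4.03 CPM under palbociclib, against 195, 205 and 183 CPM under DMSO and 1.11, 1.67 and 2.03 CPM in starved cells. Its log2 fold change at 15 h was -5.63 ± 0.11 against DMSO, a 49.2-fold lower mean, and 1.27 ± 0.21 against starved cells. Palbociclib libraries lay above all starved ones and below all DMSO ones. The 2 courses differed in shape: under palbociclib DTL averaged 2.05, 2.95, 3.95 and 12.2 CPM (9, 12, 15 and 24 h), and under DMSO 1.6, 0.542, 0.853, 30.8, 136, 194 and 136 CPM (0, 3, 6, 9, 12, 15 and 24 h). DTL was below its starved level at 3 h of DMSO (-1.56 ± 0.33) and, less firmly, at 6 h (-0.78 ± 0.28), where the call was lost without replicate 1 or 3 of DMSO 6 h or replicate 3 of starved 0 h (-0.60 to -0.57).

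**Figure D3:**
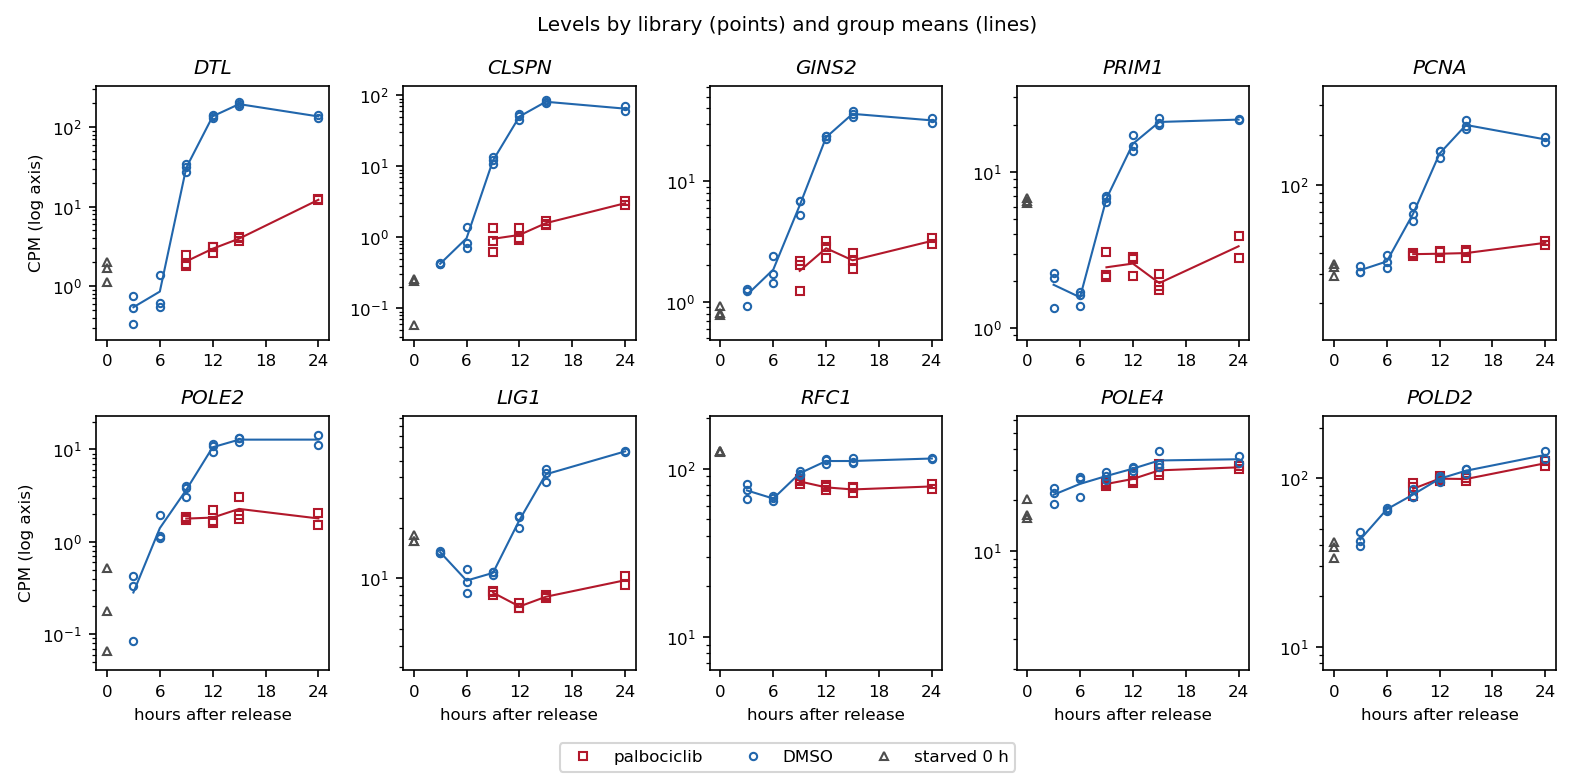
CPM (log axis, each panel with its own range) of 10 genes against hours after release; squares are palbociclib libraries, circles DMSO libraries, triangles starved libraries, and lines join group means. DTL, CLSPN, GINS2, PRIM1, PCNA, POLE2 and LIG1 separate by 12 h, while the palbociclib and DMSO libraries of POLE4 and POLD2 stay close throughout.

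Subunits of 1 complex can be compared with each other after division by exon length, as RPKM (reads scaled to the library total and to the length of the union of annotated exons). Of 3 groups compared, levels within the main clamp loader were closest together under DMSO at 15 h. The highest of RFC1 to RFC5 was 4.3 times the lowest under palbociclib at 15 h (RFC1 over RFC3), 2.4 times under DMSO at 15 h (RFC2 over RFC5) and 14.7 times in starved cells (RFC1 over RFC3). This ratio also fell with time under both treatments. Under DMSO it was 5.67, 5.56, 3.86, 2.47, 2.4 and 1.86 (3, 6, 9, 12, 15 and 24 h). Under palbociclib it was 5.56, 4.73, 4.3 and 3.35 (9, 12, 15 and 24 h). In polymerase epsilon POLE3 was the highest and POLE2 the lowest in all 3 groups. Their ratios were 34.1 under palbociclib at 15 h, 8.38 under DMSO at 15 h and 135 in starved cells. The ratio in starved cells rests on 13 counts of POLE2 over 3 libraries, and it was 252 without replicate 2. POLE2 averaged 0.767 ± 0.237 RPKM under palbociclib, 4.31 ± 0.241 under DMSO and 0.0861 ± 0.0799 in starved cells, against 26.2 ± 1.18, 36.1 ± 3.78 and 11.6 ± 2.1 RPKM for POLE3 (SD, n = 3). In polymerase delta, with POLD2 highest and POLD4 lowest, the ratio was 13.9 under palbociclib, 18.2 under DMSO and 6.31 in starved cells. In polymerase alpha-primase PRIM1 was the lowest subunit under palbociclib at 15 h (0.799 ± 0.0974 RPKM). It was the highest under DMSO at 15 h (8.57 ± 0.472 RPKM) and in starved cells (2.69 ± 0.0948 RPKM). Earlier under DMSO this rank differed: at 3 h POLA1 was the highest, and at 6 h PRIM1 was the lowest (0.648 RPKM). The GINS subunits kept ratios of 2.89, 3.62 and 4.21, with GINS4 lowest in all 3 groups. These ratios compare group means and were not tested. POLD4 and GINS4 share 21.3% and 23.6% of their exon length with other genes, so their places as lowest subunits are uncertain.

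**Figure D4:**
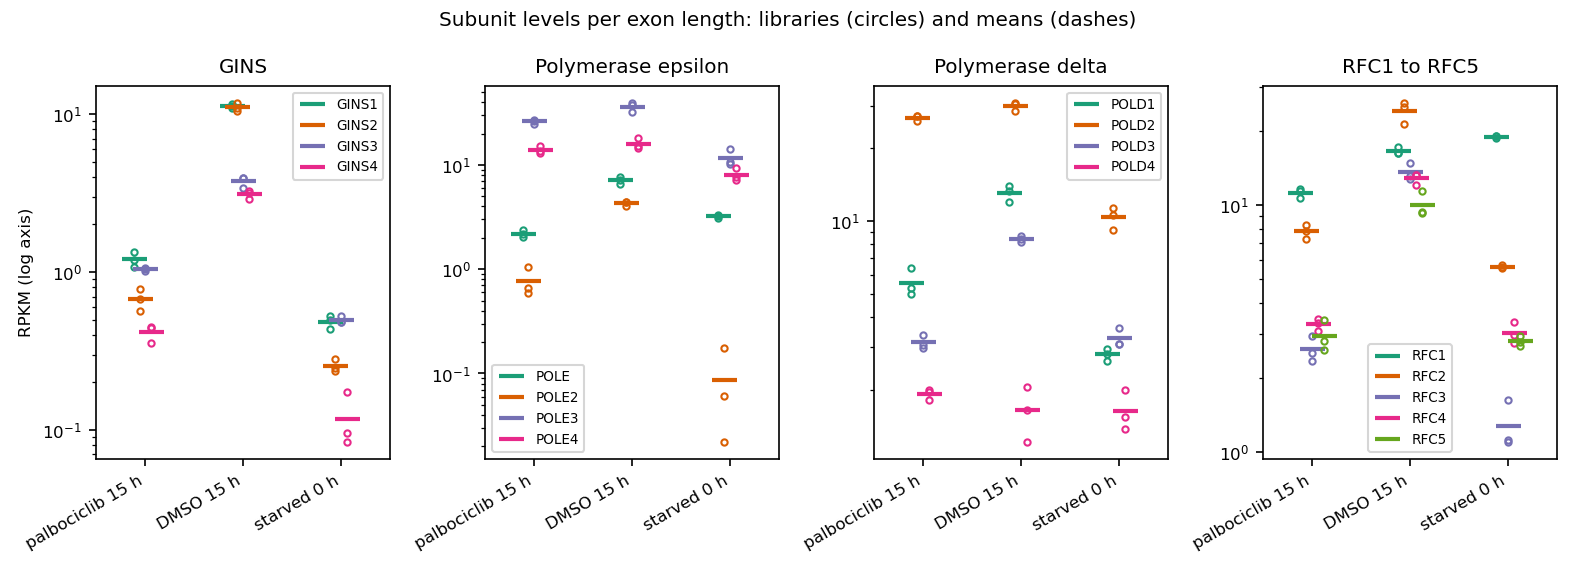
RPKM (log axis) of the subunits of GINS, polymerase epsilon, polymerase delta and the RFC loader under palbociclib at 15 h, under DMSO at 15 h and in starved cells at 0 h; circles are libraries and dashes are means. Of the 3 groups shown, RFC levels are closest together under DMSO at 15 h, with a highest-to-lowest ratio of 2.4. POLE2 lies far below POLE3 in all 3 groups.

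The drug effect grew between 9 and 15 h. Tested as the difference between the 15 h and the 9 h log2 fold changes, it became lower for 35 of the 40 genes (3.91% of all genes) and higher for none (0.133%), with a median of -1.33; 0 were higher at an unadjusted p below 0.05 or by the DESeq2 Wald test. POLE3, POLE4, POLD2, POLD4 and RPA3 were outside the call. The largest changes were those of DSCC1 (-2.28 ± 0.18), GINS2 (-2.25 ± 0.24), GINS4 (-2.19 ± 0.30) and LIG1 (-2.02 ± 0.13). All 35 remained on leaving out any 1 library, and 34 without the 5 libraries, POLE2 being lost. Within palbociclib 10 genes were higher and 6 lower at 15 h than at 9 h (12.5% and 15.4% of all genes), counts that were 4 and 2 without the 5 libraries. The higher count was 6 without replicate 3 of palbociclib 9 h, and the lower count 3 without replicate 1 or 2 of that group or any 1 library of palbociclib 15 h.

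Between 15 and 24 h the drug effect moved toward 0 for DTL (2.14 ± 0.18), CLSPN (1.23 ± 0.27), DSCC1 (0.71 ± 0.17) and PCNA (0.49 ± 0.12), which is 4 genes against 1.06% of all genes, and away from it for TICRR (-0.81 ± 0.21), 1 gene against 1.92%. Without the 5 libraries, with 1 library in each 24 h group and the spread taken from the other groups, only the DTL change was called (2.23). It was also the only one called in every fit that left out 1 library. Leaving out replicate 1 of palbociclib 24 h ended the calls of CLSPN (1.15) and DSCC1 (0.71), and leaving out replicate 3 of that group those of PCNA (0.40), DSCC1 (0.69) and TICRR (-0.69). Those of PCNA (0.40), DSCC1 (0.69) and TICRR (-0.72) were also lost without replicate 1 of DMSO 24 h, and those of PCNA (0.52) and DSCC1 (0.67) without its replicate 3. At 15 h, the lost calls were PCNA without replicate 2 of DMSO (0.42), DSCC1 without replicate 2 of palbociclib (0.60) and TICRR without replicate 1 of palbociclib (-0.69) or replicate 3 of DMSO (-0.75). DTL had 12.3 and 12 CPM under palbociclib at 24 h, against 130.1 and 142 CPM under DMSO, so the group means were 11.2-fold apart at 24 h and 49.2-fold apart at 15 h. Within palbociclib 18 genes were higher at 24 h than at 15 h (11.2%) and 1, DONSON, was lower (9.31%), with -0.51 in all libraries and -0.43 without replicate 3 of palbociclib 24 h, where the call was lost. The higher count was 10 without that library and 8 without the 5 libraries. DTL (1.63 ± 0.16), RFC3 (0.79 ± 0.15), CHTF18 (0.91 ± 0.14), DSCC1 (0.86 ± 0.15) and TIMELESS (0.49 ± 0.10) held in all these fits.

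Other genes of the same pathway differed in how far they followed. All 9 helicase genes (MCM2 to MCM7, MCM10, CDC45 and RECQL4) were lower under palbociclib at 15 h, with a median of -3.22, MCM5 at -3.78 ± 0.09 and MCM7 at -3.47 ± 0.08. Of 7 chromatin assembly genes 6 were lower (median -1.74), among them ASF1B at -6.23 ± 0.24 and CHAF1A, a subunit of the histone chaperone that works with PCNA, at -3.04 ± 0.10. Of 16 other fork genes 7 were lower (median -0.09), led by the nuclease-helicase DNA2 at -2.65 ± 0.14 and the ubiquitin ligase TRAIP at -2.08 ± 0.18. Of 7 translesion and repriming genes 2 were lower (median -0.18), PRIMPOL at -0.79 ± 0.11 and POLH at -0.30 ± 0.07. None of these 39 genes was higher. Of all genes, 8.79% were lower and 2.15% higher at 15 h. At 24 h the lower counts of the 4 lists were 9, 6, 7 and 4, again with none higher. Of all genes, 12.3% were lower and 5.76% higher at that time. For reference, E2F1 was at -5.25 ± 0.16, the cyclin E gene CCNE1 at -2.13 ± 0.14 and the proliferation marker MKI67 at -6.29 ± 0.19 at 15 h. MKI67 had 7.86 and 7.0 CPM under palbociclib at 24 h, against 886 and 769 CPM under DMSO.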

How the data were processed

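The deposited files hold whole-number counts of reads per gene for 31 libraries of poly(A) RNA from a stranded kit, sequenced as 75-base single reads, per the labels' protocols. Per the file headers, the authors counted with featureCounts 1.5.1 on GENCODE 25 exons without use of strand and without multi-mapping reads. The submitters' processing notes name FastQC 0.11.3, TopHat2 2.1.1, Bowtie2 2.2.9, Subread 1.5.1 and GRCh38.p7. Libraries were grouped by time and treatment as the labels give them. Genes were filtered with filterByExpr, which left 15787, scaled by TMM (factors 0.927 to 1.08) and fitted in 1 edgeR quasi-likelihood model of the 11 groups (edgeR 4.0.16, limma 3.58.1, R 4.3.3), with 20 residual degrees of freedom and a common biological variation of 6.55%. A gene was called at a Benjamini-Hochberg adjusted p below 0.05 over all tested genes. Errors of fold changes are standard errors, computed from the log2 fold change and the test's F statistic, by its square root. CPM use TMM-scaled totals, RPKM also the exon length in the file headers' annotation.

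The 40 genes and the other gene lists were chosen with earlier results of these data known, and any of the 40 could be named. From the other lists, the 2 genes with the smallest adjusted p per list were named. Replicate numbers recur across groups, but same-numbered palbociclib and DMSO libraries did not deviate together (correlations -0.249 to 0.113 over 9 pairs), so no block was used. Where a fit left a group with 1 library, the spread came from the other groups. The alternatives were other scalings, no filter, the DESeq2 1.42.0 Wald test, only the groups compared, the replicate block, leaving out 5 libraries, and leaving out each library in turn. The scripts were checked on simulated counts. Coordinates of genes are GRCh38 as annotated in the files, and promoter windows are RefSeq's on GRCh38.p14.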

Additional observations from a re-analysis of the deposited data

Results flagged for a closer look

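Drug effects differed between times by a test of the difference between the drug effects (edgeR quasi-likelihood test). From 9 to 15 h the effect of palbociclib became lower for 35 of the 40 genes, against 3.91% of all genes. DSCC1 (-2.28), GINS2 (-2.25), GINS4 (-2.19) and LIG1 (-2.02) had the largest log2 differences. Between 15 and 24 h the drug effect became higher, that is nearer to 0, for 4 genes, against 1.06% of all genes. These were DTL (2.14), CLSPN (1.23), DSCC1 (0.71) and PCNA (0.49). It became lower for 1 gene, TICRR (-0.81), a count near the share of 1.92% over all genes. Without replicate 3 of the palbociclib groups and of DMSO 24 h, the 24 h group of each treatment holds 1 library and the spread comes from the other groups. DTL alone was then called.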

How the results depend on the processing

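Of 606 counts of fork genes called under the alternatives, 554 were within 1.5 times the reported count. With each library left out in turn the counts of genes lower under palbociclib were 17 to 22 at 9 h (25 in all libraries), 36 to 37 at 12 h, 37 at 15 h and 36 to 37 at 24 h, and without the 5 libraries 16 at 9 h. The replicate block gave 25, 37, 37 and 37 lower genes, as without it, and moved no count of fork genes by more than 1.5 times. In no comparison with 3 pairs did every same-numbered pair deviate together with a correlation over 0.1. Among starved and DMSO groups up to 15 h the correlations were 0.239 to 0.422 for replicate 2, 0.114 to 0.364 for replicate 3 and 0.00243 to 0.0609 for replicate 1, and the 2 pairs of palbociclib 24 h and 15 h gave 0.46 and 0.496. Whether the numbers mark shared cultures or days is not given in the sources used here.

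Against starved cells, the lower count at 3 h of DMSO was 21 with library totals and 7 in a fit of the compared groups alone (12 reported). At 6 h it was 6 with no filter, 6 without the 5 libraries, 5 with the compared groups alone and 7 by the DESeq2 Wald test (11 reported), and 7 to 11 leaving out libraries. At 12 and 15 h it was 0 without the 5 libraries and 0 to 1 leaving out libraries (1 reported). At 24 h it was 1 with DESeq2 size factors, no filter, the compared groups alone or the Wald test, 0 without the 5 libraries, and 0 to 2 leaving out libraries (2 reported). For palbociclib 9 h against 0 h it was 8 with library totals (5 reported). None of the 5 libraries is in the DMSO comparisons with 0 h up to 15 h. There the fit without them changes only the shared spread, scaling and filter.

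Between times, the lower count at 6 h against 3 h of DMSO was 3 with library totals and 4 to 7 leaving out libraries (7 reported), and at 24 h against 15 h it was 3 to 6 (6 reported). For palbociclib at 15 h against 9 h the lower count was 3 with no filter or the Wald test, the counts were 4 higher and 2 lower without the 5 libraries, and 6 to 11 higher and 3 to 4 lower leaving out libraries (10 and 6 reported). At 24 h against 15 h they were 8 and 0 without the 5 libraries, and 10 to 16 and 0 to 1 leaving out libraries (18 and 1 reported). The change of the drug effect between 15 and 24 h gave 1 and 0 without the 5 libraries, and 2 to 5 and 0 to 1 leaving out libraries (4 and 1 reported). The cause of these shifts was not tested.

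Of 9194 values of single genes, 399 lost their call and 9 changed sign. The sign changes were those of RPA1 at 24 h of palbociclib against 0 h (-0.29 to 0.054 leaving out libraries, -0.20 reported) and of genes outside the drug call: POLD4 at 9 h (-0.16 to 0.14 leaving out libraries), POLD2 at 12 h (-0.0019 with no filter, -0.036 to 0.028 leaving out libraries) and POLD4 at 12 h (-0.042 without the 5 libraries, -0.041 to 0.20 leaving out libraries). CLSPN could not be tested in the fits of the compared groups alone for palbociclib 9 h against 0 h and DMSO 6 h against 3 h. Depth limits the genes with few counts at the start, such as CLSPN with 9 counts over the starved libraries, whose fold changes against 0 h depend on the prior count.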
